A study of Mus musculus with 24 samples.

Results

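The Norrin receptor complex was followed in 5 of the 18193 genes named on the arrays, through 8 of the 45037 probe sets tested. Probe sets were taken where the platform annotation gave a single symbol that was Fzd4, Lrp5, Lrp6, Tspan12 or Ndp. Fzd4 had 3, Lrp6 had 2, and Lrp5, Tspan12 and Ndp had 1 each. No further probe set named a member among several symbols.

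Norrin, encoded by Ndp, is a secreted cystine-knot protein that is unrelated to Wnts in sequence but binds the receptor frizzled-4, the product of Fzd4. Lrp5 and Lrp6 encode single-pass co-receptors of the LDL receptor family, and Tspan12 encodes a tetraspanin that strengthens Norrin signalling through frizzled-4. The assembled complex stops the breakdown of beta-catenin, which then acts with TCF/LEF factors in the nucleus. In the retina the pathway is known for vessel growth into the tissue and for the blood-retina barrier.

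The study measured total RNA of retinal endothelial cell lines, made from adult mice (mixed gender, C57Bl6/129 mixed background), in 8 groups of 3 arrays. Every line, Fz4-/- and wild type, carried a temperature-sensitive SV40 large T antigen under the interferon-responsive H2Kb promoter, and was passaged at 33 °C with interferon gamma and moved to 37 °C without it before RNA was made. Fz4-/- and wild type (WT) cells were grown in 4 ways, on Matrigel, which is an extract of basement membrane, on gelatin-coated plates, with HEK293 cells that stably express Norrin, or with control HEK293 cells. HEK293 is a line of human embryonic kidney cells. Matrigel cells spent 24 hours in 1% serum and then 6 hours on the extract, and the labels give no such starvation for gelatin cells. RNA of the co-cultures was about equal parts mouse and human, per the labels. The part of human RNA in the co-culture readings was not tested. The deleted stretch of Fzd4, the number of lines per genotype and whether replicates were separate cultures are not given in the labels. The p-values thus cover array-to-array spread alone, which may be technical.

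Levels are log2 probe set intensities. All 12 endothelial markers, Pecam1 and Cdh5 among them, lay above the array median in every group. In cells grown alone the mean of that list was 10.84 to 11.28 in Fz4-/- arrays and 10.55 to 10.79 in WT arrays. The value distributions fell into 3 sets, with medians of 5.02 to 5.10 in the 12 single cultures, 3.21 to 3.31 in the 6 Fz4-/- co-cultures and 3.44 to 3.52 in the 6 WT co-cultures. Genotype and array set thus cannot be told apart in co-culture, and levels are not compared between cells grown alone and co-cultures. In 5 of the 8 groups replicate 1 stood apart, its probe set differences from the other arrays having over 1.5 times the standard deviation (SD) of those between replicates 2 and 3 (0.312 to 0.374 against 0.162 to 0.202). Replicate 1 of WT cells with Norrin-expressing HEK293 cells lay just under that limit, at 0.298 and 0.294 against 0.200. Its spike-in dap control was at 6.60, against 7.98 and 7.81 in the other arrays of its group. In replicate 1 of WT cells with control HEK293 cells that spike-in was at 5.43, against 8.03 and 7.77. In the 6 Fz4-/- co-cultures it was at 2.60 to 3.01.

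Promoter sequence was held for 3 of the 5 genes, and those of Fzd4 and Tspan12 are shown. Tspan12 was higher in Fz4-/- cells grown alone, while Fzd4 is the deleted gene and was lower for that reason. A link between these windows and the levels was not tested. Each run is the 250 bases before the annotated start, 5′ to 3′ on the gene's strand, from RefSeq on GRCm38.p6, at chr7:89404116-89404365 on the plus strand for Fzd4 and chr6:21852534-21852783 on the minus strand for Tspan12. Capitals mark the GC box GGGCGG and the TCF/LEF core CTTTG, each on either strand.
Fzd4: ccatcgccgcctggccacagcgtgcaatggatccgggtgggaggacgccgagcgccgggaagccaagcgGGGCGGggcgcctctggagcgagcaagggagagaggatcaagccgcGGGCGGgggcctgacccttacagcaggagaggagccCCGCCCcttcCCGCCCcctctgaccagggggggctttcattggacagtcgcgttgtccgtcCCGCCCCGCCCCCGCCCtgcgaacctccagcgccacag
Tspan12: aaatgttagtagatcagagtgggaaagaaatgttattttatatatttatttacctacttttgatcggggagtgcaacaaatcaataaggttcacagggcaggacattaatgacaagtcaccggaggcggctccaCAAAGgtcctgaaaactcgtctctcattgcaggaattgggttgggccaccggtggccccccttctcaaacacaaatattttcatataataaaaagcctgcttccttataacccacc
The Fzd4 window held 7 GC boxes, a pair of them overlapping by a base, and 0 TCF/LEF cores. The Tspan12 window held 1 TCF/LEF core, which began 116 bases before the start, and 0 GC boxes. Each window also held 1 CCAAT box (CCAAT on either strand) and 0 SOX cores (ACAAT on either strand). Of 32851 windows of this length, 32.7% held a GC box, 48.6% a TCF/LEF core, 33.8% a CCAAT box and 27.7% a SOX core. A match describes the letters of the window and is not a bound site.

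On gelatin, the comparison of Fz4-/- with WT cells shows what the lines carry of the receptor without added ligand. Fzd4 was lower in Fz4-/- by all of its probe sets, while the co-receptor genes Lrp5 and Lrp6 (by 1 of its 2 probe sets) and the tetraspanin gene Tspan12 were higher. With limma, 6 of the 8 member probe sets passed at an adjusted p below 0.05, 3 higher and 3 lower, where 10.7% of all probe sets passed (5.61% higher and 5.08% lower). The arrays of the genotypes did not overlap for any of the 8, with 5 higher and 3 lower, where 15.5% of all probe sets were higher and 13.3% lower without overlap. In both counts the 3 lower ones were those of Fzd4, the deleted gene, and say nothing beyond the genotype label. In RNA of whole cultures, fewer cells of a type and less RNA per cell cannot be told apart.

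Fzd4 is the deleted gene and checks the labels. Its probe set 1419301_at read 5.50, 5.08 and 4.61 in Fz4-/- cells on gelatin, against 9.09, 8.58 and 8.44 in WT cells. The groups lay far apart, with no overlap, and the difference was -3.64 ± 0.22 (SE, n = 3 per group, adjusted p = 7.34e-07). The probe set 1434756_at read 4.50, 4.57 and 4.10 in Fz4-/- against 7.07, 6.93 and 7.04 in WT, a difference of -2.62 ± 0.12 (SE, adjusted p = 4.74e-08). The probe set 1449416_at read 2.63, 2.34 and 2.36 in Fz4-/- against 3.84, 3.38 and 3.66 in WT, a difference of -1.18 ± 0.16 (SE, adjusted p = 0.000504). Its Fz4-/- values were below the lower quartile of the arrays, which lay at 3.36 to 3.43, so this difference may understate the change. The probe sets 1419301_at and 1449416_at were annotated from the same transcript accession and are not independent readings.

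Lrp5, the co-receptor gene whose loss in mice and people also impairs retinal vessels, rose in Fz4-/- cells on gelatin. It read 7.08, 7.47 and 7.52 in Fz4-/- against 6.15, 6.58 and 6.34 in WT, with the lowest Fz4-/- array above the highest WT array. The difference was 1.00 ± 0.17 (SE, 95% interval 0.63 to 1.37, adjusted p = 0.00263).

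Tspan12 read 5.84, 5.57 and 5.63 in Fz4-/- cells on gelatin, against 4.99, 5.09 and 4.64 in WT. The groups did not overlap, and Tspan12 rose by 0.78 ± 0.20 (SE, 95% interval 0.34 to 1.21, adjusted p = 0.0262). This call was lost without Fz4-/- replicate 1 (0.70, adjusted p = 0.0920), 2 (0.83, adjusted p = 0.0524) or 3 (0.80, adjusted p = 0.0644), or without WT replicate 3 (0.64, adjusted p = 0.114), with alternatives from 0.00189 to 0.187.

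Lrp6, the co-receptor gene closest to Lrp5, rose by 1 of its 2 probe sets. The probe set 1428500_at read 8.20, 7.93 and 7.96 in Fz4-/- cells on gelatin against 7.60, 7.22 and 7.42 in WT, a difference of 0.62 ± 0.16 (SE, 95% interval 0.26 to 0.98, adjusted p = 0.0323). The probe set 1451022_at read 7.34, 7.43 and 7.30 in Fz4-/- against 7.18, 7.05 and 7.13 in WT. Here the difference of 0.24 ± 0.08 (SE, adjusted p = 0.102) did not pass. The 1428500_at call was lost without any 1 of Fz4-/- replicates 1 to 3 or WT replicates 2 and 3 (0.52 to 0.67, adjusted p from 0.0604 to 0.131), with alternatives from 0.00115 to 0.244.

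Ndp, which encodes the ligand itself, lay low in all single cultures. It read 3.35, 3.20 and 3.14 in Fz4-/- cells on gelatin against 2.63, 3.02 and 3.11 in WT, all below the lower quartile of the arrays. The groups came close without overlap, at 3.14 for the lowest Fz4-/- and 3.11 for the highest WT value, and the difference of 0.31 ± 0.12 (SE, adjusted p = 0.14) did not pass.

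**Figure D1:**
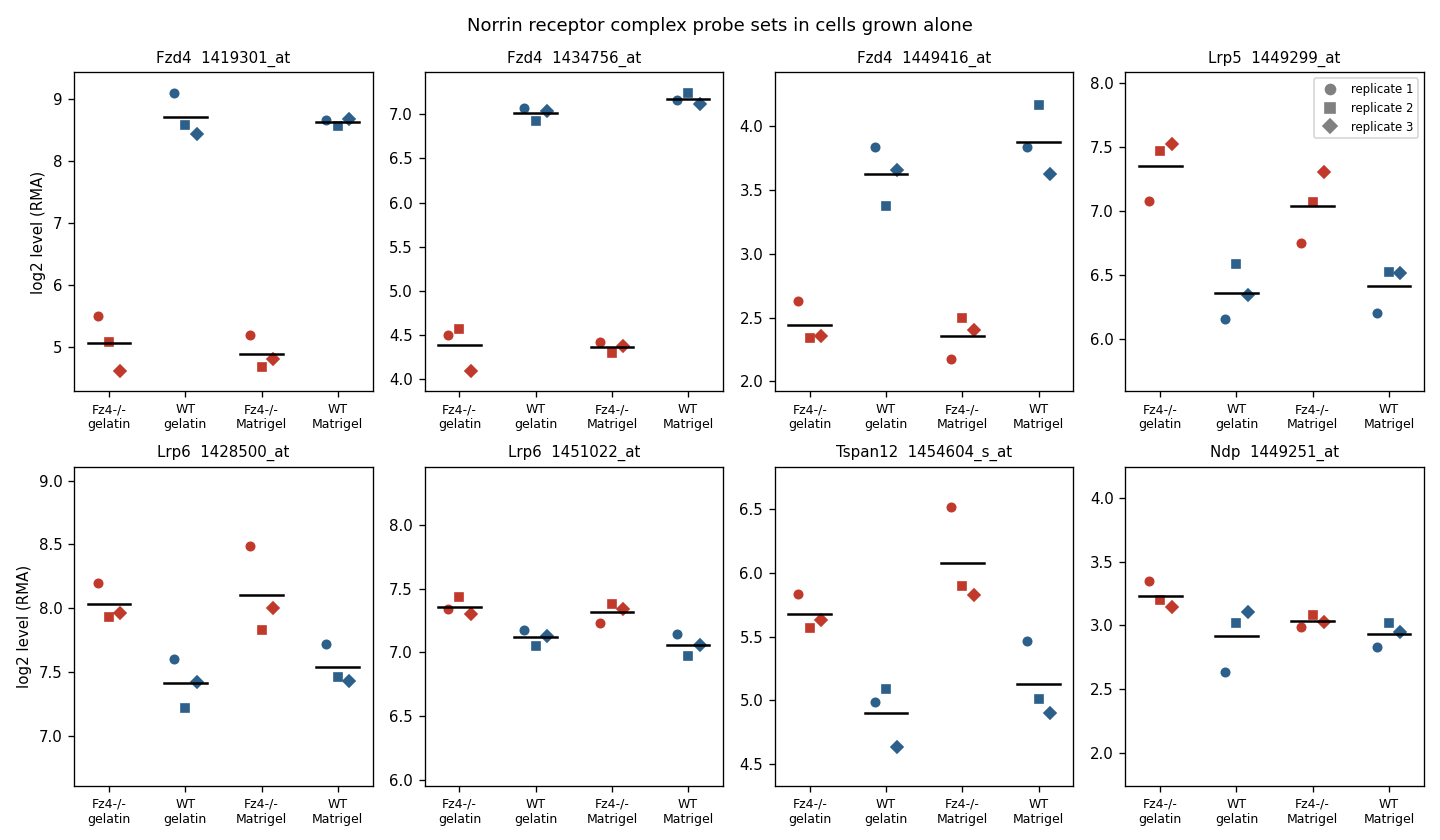
Level of each member probe set (log2, vertical axes of differing range) in the 12 arrays of cells grown alone, by group, with points for arrays, marker shapes for replicate numbers and black lines for group means. Fzd4 probe sets lie lower in Fz4-/- cells, and Lrp5, Lrp6 and Tspan12 lie higher, on gelatin and on Matrigel.

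On Matrigel the same question was asked with other arrays, and whether these came from the same lines as on gelatin is not given in the labels. Again 6 of 8 member probe sets passed, 3 higher and 3 lower in Fz4-/-, where 11.4% of all probe sets passed (5.52% higher and 5.88% lower). Without overlap between the groups, 4 were higher and 3 lower, where 15.2% and 12.8% of all probe sets were. The 6 that passed were those of the gelatin comparison, each in the same direction, and the 3 lower were again those of the deleted Fzd4. The test of the difference between the substrates, described further on, passed for none of them.

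Fzd4 by 1419301_at read 5.19, 4.67 and 4.80 in Fz4-/- cells on Matrigel against 8.66, 8.56 and 8.67 in WT, a difference of -3.74 ± 0.22 (SE, adjusted p = 5.48e-07). By 1434756_at the levels were 4.42, 4.29 and 4.38 in Fz4-/- against 7.16, 7.24 and 7.11 in WT, a difference of -2.80 ± 0.12 (SE). By 1449416_at they were 2.18, 2.50 and 2.40 in Fz4-/- against 3.84, 4.17 and 3.63 in WT, a difference of -1.52 ± 0.16 (SE). In none of the 3 did the groups overlap.

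Tspan12 read 6.52, 5.90 and 5.83 in Fz4-/- cells on Matrigel against 5.47, 5.01 and 4.90 in WT. Replicate 1 was the highest array of both groups, and the groups did not overlap. Tspan12 rose by 0.95 ± 0.20 (SE, 95% interval 0.52 to 1.39, adjusted p = 0.00839). Leaving out any 1 of these 6 arrays kept the call, with values of 0.74 to 1.13.

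Lrp5 read 6.75, 7.07 and 7.30 in Fz4-/- cells on Matrigel against 6.20, 6.52 and 6.52 in WT, without overlap. The rise was 0.63 ± 0.17 (SE, 95% interval 0.26 to 1.00, adjusted p = 0.0329). It passed without Fz4-/- replicate 1, and lost its call without Fz4-/- replicate 2 or 3 or any 1 WT array (0.50 to 0.68, adjusted p from 0.0625 to 0.118). It also lost it with all 24 arrays in 1 fit (adjusted p = 0.110) and with only the compared arrays (0.0607), with alternatives from 0.00097 to 0.227.

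Lrp6 by 1428500_at read 8.49, 7.83 and 8.0 in Fz4-/- cells on Matrigel against 7.72, 7.46 and 7.43 in WT, a rise of 0.57 ± 0.16 (SE, adjusted p = 0.0447). Replicate 1 was again the highest of each group. The call was lost without Fz4-/- replicate 1 (0.38, adjusted p = 0.135) or 3 (0.62, adjusted p = 0.0689), or without WT replicate 2 (0.53, adjusted p = 0.139) or 3 (0.52, adjusted p = 0.144), or with only the compared arrays (adjusted p = 0.110), with alternatives from 0.00185 to 0.215. By 1451022_at the levels were 7.23, 7.38 and 7.34 in Fz4-/- against 7.15, 6.97 and 7.06 in WT, a difference of 0.26 ± 0.08 (SE, adjusted p = 0.0739) that did not pass. It passed with quantile normalization (0.31, adjusted p = 0.0370), with bright probe sets alone (0.26, 0.0404) and without replicate 1 of every group (0.34, 0.0234), with alternatives from 0.0234 to 0.417.

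Ndp read 2.99, 3.08 and 3.03 in Fz4-/- cells on Matrigel against 2.83, 3.02 and 2.95 in WT. These groups overlap, and the difference was 0.10 ± 0.12 (SE, 95% interval -0.16 to 0.36).

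On both substrates, the calls of Lrp5, Lrp6 and Tspan12, though not the size of their differences, depended on how replicates 2 and 3 were counted. With those arrays averaged into 1 sample, Lrp5 differed by 0.98 on gelatin and 0.61 on Matrigel, Lrp6 (1428500_at) by 0.61 and 0.62, and Tspan12 by 0.80 and 0.98. The Fzd4 probe sets alone then passed, 3 of 8 on gelatin (2.54% of all probe sets passed) and 3 of 8 on Matrigel (2.73%), with adjusted p of 0.0761 to 0.244 for the other 3. With replicate 1 of every group left out, Lrp5 rose by 1.03 on gelatin and 0.67 on Matrigel, Tspan12 by 0.74 and 0.91, and Lrp6 (1428500_at) by 0.63 and 0.47, all past the threshold.

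Of 5 measured photoreceptor and retinal neuron markers, Thy1, a glycoprotein also found on other cell types, averaged 8.29 in Fz4-/- and 3.97 in WT cells on gelatin. The other 4 lay close together, with Crx at 4.25 in Fz4-/- and 4.17 in WT, Nrl at 4.15 and 4.20, Opn1sw at 4.52 and 4.58, and Rbpms at 9.74 and 9.65. The list mean was 5.96 to 6.27 in Fz4-/- arrays grown alone and 5.13 to 5.35 in WT arrays, a gap that Thy1 carried on gelatin. The part of this shift in the rises was not tested. Pericyte and smooth muscle markers averaged 4.43 to 4.70 in Fz4-/- and 4.30 to 4.56 in WT, and of these 8 genes 1 or 2 lay above the array median. On gelatin, Acta2 of this list averaged 8.21 in Fz4-/- and 6.93 in WT cells. The pigment epithelium marker Best1 averaged 6.79 and 5.88 there, and the macrophage marker Cd68 8.83 and 9.49. The other genes of these lists lay closer together on gelatin. The part of these differences in the rises was not tested.

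**Figure D2:**
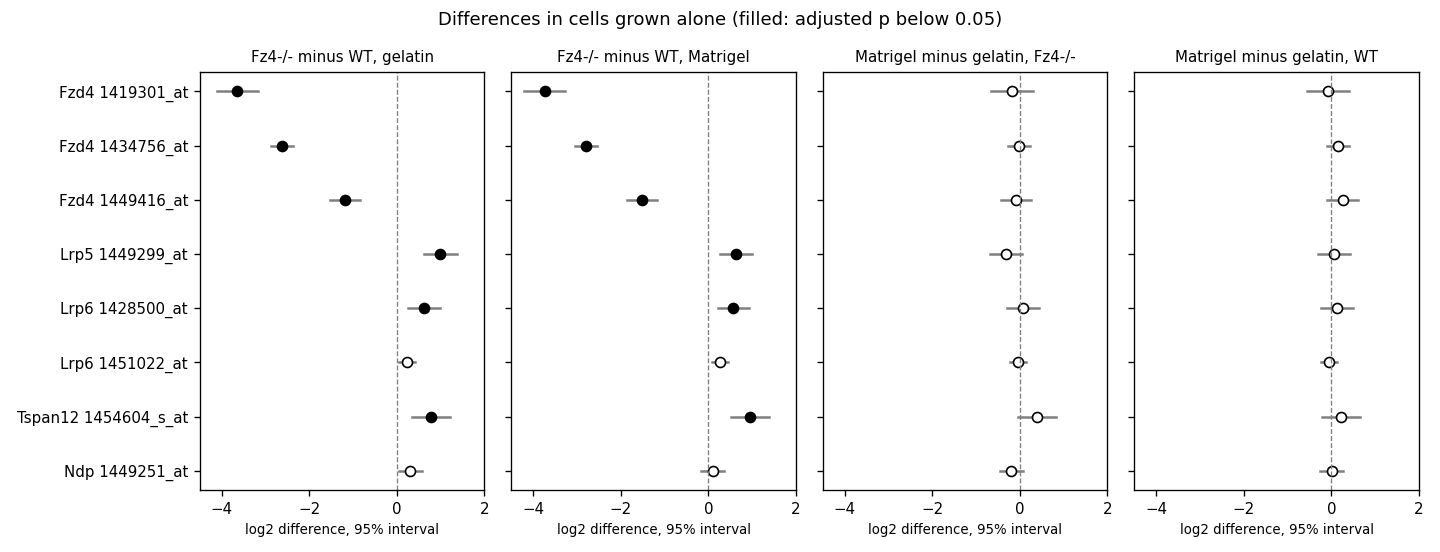
Log2 differences of the 8 member probe sets (points) with 95% intervals (lines) in the 12 arrays of cells grown alone, for Fz4-/- minus WT on each substrate and Matrigel minus gelatin in each genotype, with filled points for an adjusted p below 0.05. The genotype panels hold 6 filled points each and the Matrigel panels, from the fit without the replicate block, 0.

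Comparing Matrigel with gelatin asked whether the complex changes when endothelial cells meet basement membrane. Without a replicate block, none of the 8 member probe sets passed in either genotype, where 20.2% of all probe sets passed in Fz4-/- and 18% in WT. At an unadjusted p below 0.05 limma also gave 0 of 8 members in each genotype, against 15367 and 14478 of all 45037 probe sets.

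In Fz4-/- cells, Tspan12 was at 6.08 ± 0.38 (SD, n = 3) on Matrigel and 5.68 ± 0.14 on gelatin, a difference of 0.40 ± 0.20 (SE, 95% interval -0.03 to 0.83, adjusted p = 0.179). Lrp5 was at 7.04 ± 0.28 (SD) on Matrigel and 7.35 ± 0.24 on gelatin, a difference of -0.31 ± 0.17 (SE, 95% interval -0.68 to 0.06, adjusted p = 0.217). With the replicate number as a block, which pairs arrays of equal number, both passed, Tspan12 at adjusted p = 0.0412 and Lrp5 at 0.0316, where 27.8% of all probe sets passed. Within pairs of equal number, Matrigel minus gelatin was 0.68, 0.33 and 0.20 for Tspan12. For Lrp5 it was -0.33, -0.40 and -0.22, and the sign was the same in 3 of 3 pairs for each gene. Over all probe sets, an array's best match between these groups had its own number in 4 of 6 checks.

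In WT cells, Tspan12 was at 5.13 ± 0.30 (SD, n = 3) on Matrigel and 4.90 ± 0.24 on gelatin, a difference of 0.22 (95% interval -0.21 to 0.66). Lrp5 differed by 0.05 (95% interval -0.32 to 0.42), Lrp6 (1428500_at) by 0.12 (-0.24 to 0.48) and Fzd4 (1419301_at) by -0.07 (-0.55 to 0.40). Among these 4, the interval of Fzd4 reaches farthest down, and that of Tspan12 farthest up.

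The Matrigel response was also compared between the genotypes by limma's test of the difference. It passed for 0 of 8 members, where 0.0178% of all probe sets passed. At an unadjusted p below 0.05 it gave 0 of 8 members and 4.23% of all probe sets. The value farthest from 0 was that of Lrp5, at -0.37 ± 0.24 (SE, 95% interval -0.89 to 0.16).

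The order of the 4 single-culture groups was the same for Tspan12 and Lrp6 (1428500_at). It ran from Fz4-/- on Matrigel through Fz4-/- on gelatin and WT on Matrigel to WT on gelatin. By 1451022_at, Lrp6 lay higher on gelatin than on Matrigel, at 7.36 and 7.32 in Fz4-/- and 7.12 and 7.06 in WT. Lrp5 had Fz4-/- on gelatin highest and WT on gelatin lowest. In these orders the neighbours of equal genotype did not differ beyond their spread in the unblocked fit. Fzd4 (1419301_at) had WT on gelatin highest, at 8.70 ± 0.35 (SD, n = 3), and Fz4-/- on Matrigel lowest, at 4.89 ± 0.27. The other Fzd4 probe sets had WT on Matrigel highest. They averaged 7.17 there against 7.01 in WT on gelatin (1434756_at), and 3.88 against 3.62 (1449416_at).

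The genes most like each member were sought over the 12 single-culture arrays, among 1676 genes whose group means ranged over at least 1 log2 unit. Pearson's r with Fzd4 was highest for Syngr3 (a synaptic vesicle protein), Rpgrip1 (a protein of the photoreceptor cilium) and Mgmt (a DNA repair enzyme), at 0.994, 0.994 and 0.993. Each was lower in Fz4-/- cells, with Rpgrip1 at 6.94 in Fz4-/- and 10.42 in WT on gelatin. With Tspan12, r was highest for Prxl2c (0.959), Pde2a (a cyclic nucleotide phosphodiesterase, 0.954) and Ldb2 (a cofactor of LIM-domain proteins, 0.953). Ldb2 lay at 8.17 in Fz4-/- and 6.02 in WT cells on gelatin. These coefficients describe 12 arrays that share a genotype split. The group means of Lrp5, Lrp6 and Ndp ranged over less than 1 log2 unit, and no like genes were sought for them.

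Genes that work beside the complex were read from lists, with each gene represented by its brightest probe set on average. Among the named genes taken this way, 6.21% were higher and 7.03% lower in Fz4-/- on gelatin, and 6% and 7.86% on Matrigel, with a median difference of 0.00 and 0.02.

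Of 26 measured genes that relay the signal to beta-catenin, 4 rose, 0 fell and 22 did not pass on gelatin, with a median of 0.13. On Matrigel 3 rose, 0 fell and 23 did not pass, with a median of 0.08. Tcf7l1, a TCF factor that mainly represses its targets, rose by 0.87 ± 0.13 (SE) on gelatin and 0.57 ± 0.13 on Matrigel. Bcl9, a beta-catenin co-activator, rose by 0.47 ± 0.11 and 0.63 ± 0.11, and Ctnnbip1, which encodes an inhibitor of beta-catenin binding to TCF, by 0.44 ± 0.10 and 0.43 ± 0.10. Csnk1e, a casein kinase, rose by 0.59 ± 0.16 on gelatin.

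Of 10 measured partners of Lrp5 and Lrp6, 2 fell and 8 did not pass on gelatin, and 1 fell and 9 did not pass on Matrigel. Dkk2, a secreted ligand of Lrp6 of the Dickkopf family, fell by 1.43 ± 0.14 (SE) on gelatin and fell by 1.11 ± 0.14 on Matrigel. It averaged 3.02 in Fz4-/- and 4.45 in WT on gelatin, with the Fz4-/- level under the lower quartile of the arrays. Caprin2, a protein that binds Lrp5 and Lrp6, fell by 0.70 ± 0.16 on gelatin.

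Few other members of the LDL receptor family were measured. A count of 0 rises among them lies near the share of all named genes, 6.21% higher on gelatin and 6% on Matrigel. Of 11 measured, 0 rose, 2 fell and 9 did not pass on gelatin, and 0 rose, 1 fell and 10 did not pass on Matrigel, with medians of 0.01 and -0.02. Lrp1, a large endocytic receptor, fell by 1.63 ± 0.28 (SE) on gelatin and fell by 1.80 ± 0.28 on Matrigel. Lrp8, a reelin receptor, fell by 0.53 ± 0.13 on gelatin.

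Of 28 other tetraspanins measured, 6 rose, 3 fell and 19 did not pass on gelatin (median 0.04), and 7 rose, 3 fell and 18 did not pass on Matrigel (median 0.07). Cd9 rose by 1.31 ± 0.16 (SE) on gelatin and 1.52 ± 0.16 on Matrigel, Tspan18 by 1.21 ± 0.22 and 1.13 ± 0.22, while Tspan2 fell by 2.08 ± 0.23 on gelatin and fell by 1.99 ± 0.23 on Matrigel. Tspan14, which regulates the protease ADAM10, rose by 0.90 ± 0.07 on gelatin.

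Of 12 measured genes known to respond to Norrin or frizzled-4 in retinal vessels, 2 rose, 1 fell and 9 did not pass on gelatin, and 1 rose, 1 fell and 10 did not pass on Matrigel, with medians of -0.04 and 0.10. Sox17, a SoxF transcription factor, fell by 4.82 ± 0.18 (SE) on gelatin and fell by 4.52 ± 0.18 on Matrigel. Plvap, a protein of endothelial fenestrae, rose by 2.02 ± 0.53 and 2.31 ± 0.53, and Tnfrsf19 rose by 0.52 ± 0.12 on gelatin. The list was chosen with earlier results of these data known, so these calls are no independent check of the pathway.

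Between the substrates, with both directions counted together, genes of the beta-catenin relay passed at no larger a share than all named genes. In Fz4-/- cells, where 7.77% of named genes were higher and 11.5% lower on Matrigel, 1 of 26 relay genes rose and 2 fell. In WT cells, where 6.46% were higher and 11.2% lower, 1 rose and 3 fell. Tcf7l2, a TCF factor, rose by 0.83 ± 0.15 (SE) in Fz4-/- and 0.83 ± 0.15 in WT cells. Lef1, a factor of the same family and often itself a target of the pathway, fell by 1.11 ± 0.10 in Fz4-/- and fell by 1.17 ± 0.10 in WT cells. Of the 12 response genes, 0 rose and 3 fell in Fz4-/- and 1 rose and 3 fell in WT cells, with Lef1 in both lists. Apcdd1, which encodes a Wnt inhibitor, fell by 0.66 ± 0.16 in Fz4-/- and fell by 0.71 ± 0.16 in WT cells. The starvation that Matrigel cells had and the substrate cannot be told apart.

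**Figure D3:**
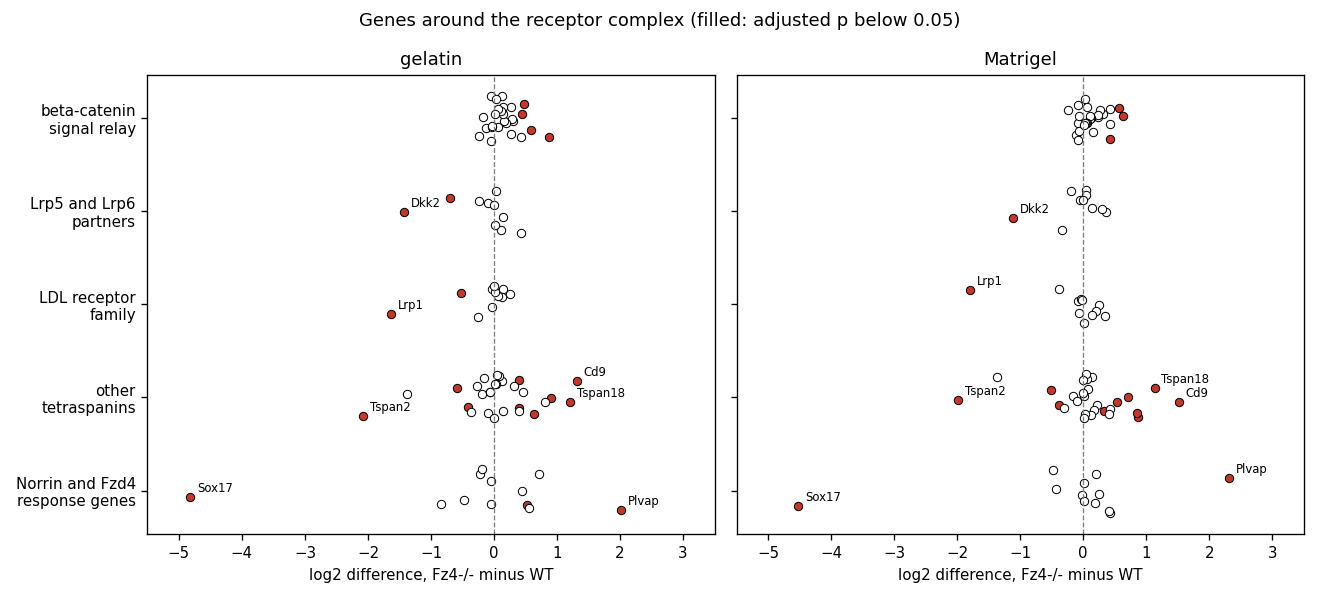
Log2 difference, Fz4-/- minus WT, of each measured gene of 5 lists in cells grown on gelatin (left) and on Matrigel (right), with a point for each gene, filled for an adjusted p below 0.05 and vertical scatter for legibility alone. Named points are genes with a difference beyond 1 log2 unit among those the naming rule picks.

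Co-culture with Norrin-expressing against control HEK293 cells asked whether the ligand-producing line alters the receptor complex of its neighbours. None of the 8 member probe sets passed in either genotype, where 0.18% of all probe sets passed in Fz4-/- and 5.81% in WT. At an unadjusted p below 0.05 limma gave 1 of 8 members in Fz4-/- cells, against 7.47% of all probe sets, and 1 of 8 in WT cells, against 16.9%. Other differences between the HEK293 lines and Norrin itself cannot be told apart.

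Fzd4 by 1419301_at read 2.71, 2.81 and 2.75 in Fz4-/- cells with Norrin-expressing HEK293 cells, against 2.94, 2.83 and 2.69 with control HEK293 cells. All 6 values were below the array medians. In WT cells it read 6.35, 6.38 and 6.45 with Norrin-expressing cells against 6.18, 6.25 and 6.28 with control cells. The WT groups did not overlap, and the difference of 0.16 ± 0.10 (SE, 95% interval -0.05 to 0.37, adjusted p = 0.471) did not pass.

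By 1434756_at, Fzd4 read 3.68, 3.68 and 3.99 in Fz4-/- cells with Norrin-expressing cells against 4.03, 4.30 and 4.04 with control cells, a difference of -0.34 ± 0.16 (SE, adjusted p = 0.665). In WT cells it read 6.11, 6.26 and 6.41 against 5.59, 6.17 and 6.25, a difference of 0.26 ± 0.16 (SE, adjusted p = 0.473). By 1449416_at the WT levels were 2.29, 2.70 and 2.63 with Norrin-expressing cells against 2.11, 2.27 and 2.28 with control cells, a difference of 0.32 ± 0.13 (SE, adjusted p = 0.189). The Fz4-/- levels of that probe set were 1.85 to 1.97 with Norrin-expressing cells and 1.69 to 2.10 with control cells.

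Lrp5 in WT cells read 3.29, 4.48 and 4.82 with Norrin-expressing cells against 3.71, 4.27 and 4.23 with control cells, a difference of 0.13 ± 0.27 (SE, 95% interval -0.44 to 0.69, adjusted p = 0.894). Replicate 1 of the Norrin group lay more than 1 log2 unit below the other two. Without it Lrp5 differed by 0.58 (adjusted p = 0.0464) and Fzd4 by 1449416_at by 0.45 (adjusted p = 0.0454), and both then passed. Over the alternatives, the adjusted p was 0.0464 to 0.996 for Lrp5 and 0.0454 to 0.5 for that Fzd4 probe set, and the cause was not tested. In Fz4-/- cells Lrp5 read 3.98, 4.20 and 3.99 with Norrin-expressing cells against 3.99, 4.06 and 3.79 with control cells, a difference of 0.11 ± 0.27 (SE).

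Lrp6 by 1428500_at was at 5.86 ± 0.10 (SD, n = 3) with Norrin-expressing and 5.78 ± 0.12 with control cells in Fz4-/- co-cultures. In WT co-cultures it was at 5.99 ± 0.07 with Norrin-expressing and 6.05 ± 0.11 with control cells. By 1451022_at the levels were 5.68 ± 0.03 against 5.62 ± 0.02 in Fz4-/- and 5.55 ± 0.16 against 5.56 ± 0.24 in WT co-cultures. The 4 differences lay between -0.06 and 0.08, and their 95% intervals reached from -0.28 to 0.32.

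Tspan12 lay at or below the lower quartile of most co-culture arrays, which was 2.34 to 2.44 in Fz4-/- and 2.57 to 2.65 in WT co-cultures. It read 2.11, 2.17 and 2.10 in Fz4-/- cells with Norrin-expressing cells against 2.32, 2.31 and 2.17 with control cells. In WT cells it read 2.23, 2.40 and 2.63 against 2.21, 2.65 and 2.53. A change in Tspan12 could therefore be missed in co-culture.

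For Ndp, co-cultures with the Norrin-expressing line looked like the others. It read 2.39, 2.14 and 2.02 in Fz4-/- cells with Norrin-expressing cells against 2.32, 2.34 and 2.13 with control cells, and 2.64, 2.52 and 2.58 in WT cells with Norrin-expressing cells against 2.52, 2.54 and 2.58 with control cells. The differences were -0.08 ± 0.11 (SE, 95% interval -0.31 to 0.16) in Fz4-/- and 0.03 ± 0.11 (-0.20 to 0.27) in WT. The labels do not give the species or extent of the Norrin sequence in the HEK293 line, so this probe set is no check of that label.

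**Figure D4:**
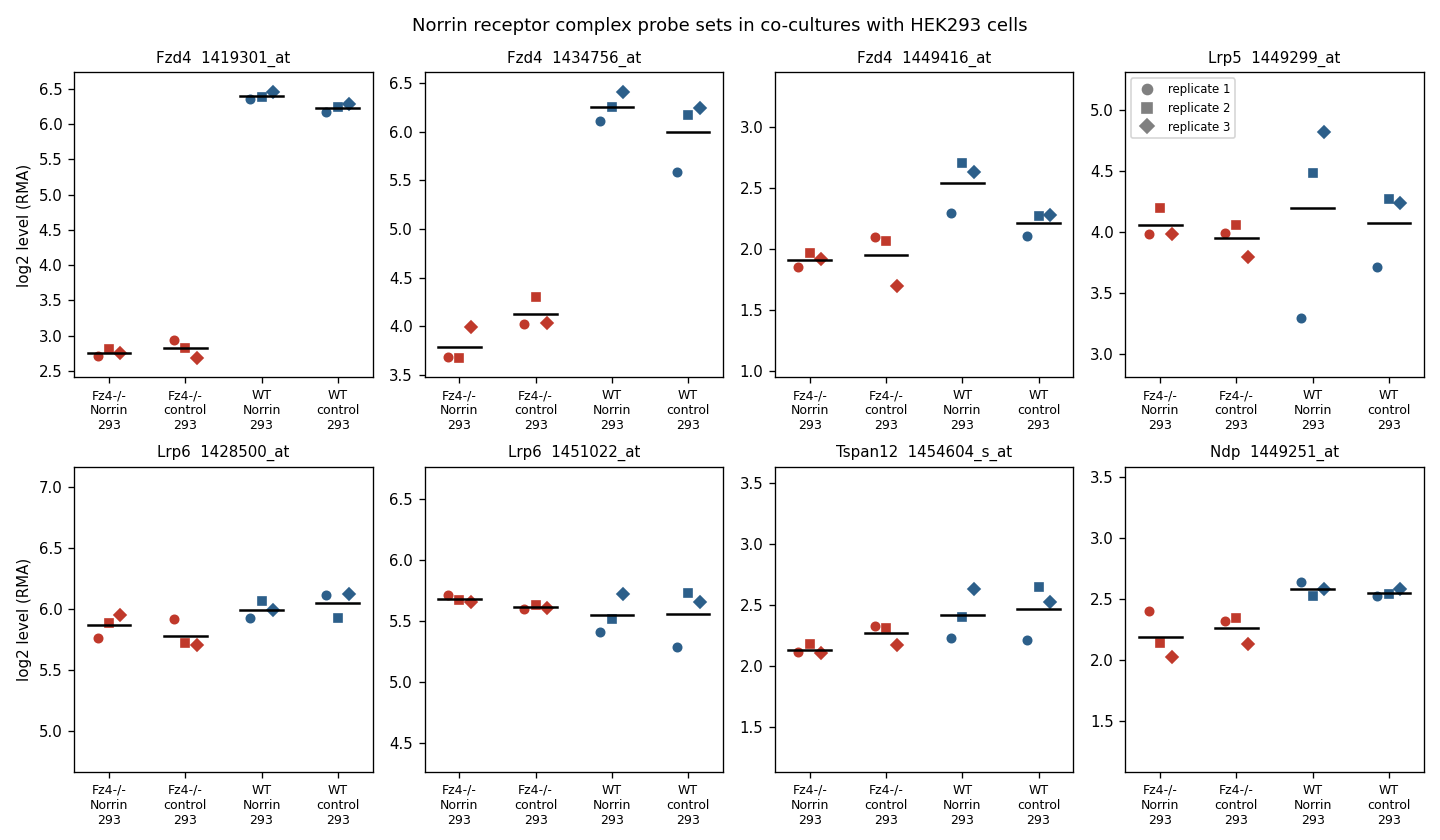
Level of each member probe set (log2, vertical axes of differing range) in the 12 co-culture arrays, by genotype and HEK293 line, with points for arrays, marker shapes for replicate numbers and black lines for group means. The Norrin and control groups lie close to each other within a genotype, and Lrp5 in WT cells with Norrin-expressing cells spans 3.29 to 4.82.

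The effect of the Norrin-expressing line was compared between the genotypes. Limma's test of the difference passed for 0 of 8 members, where 1.17% of all probe sets passed. At an unadjusted p below 0.05 it gave 1 of 8 members, against 9.83% of all probe sets. That was Fzd4 by 1434756_at, at -0.59 ± 0.22 (SE, 95% interval -1.07 to -0.12, adjusted p = 0.332). Norrin-expressing minus control was -0.34 in Fz4-/- and 0.26 in WT cells for this probe set. Fzd4 is the deleted gene, so the Fz4-/- side is no response of an intact Fzd4 gene. Endothelial marker levels moved with the HEK293 line in WT co-cultures, with a list mean of 7.36 to 7.78 with Norrin-expressing and 6.62 to 6.91 with control cells. In Fz4-/- co-cultures it was 7.94 to 8.11 with Norrin-expressing and 7.74 to 7.87 with control cells. The part of this shift in the values of the members, and of the list genes below, was not tested.

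**Figure D5:**
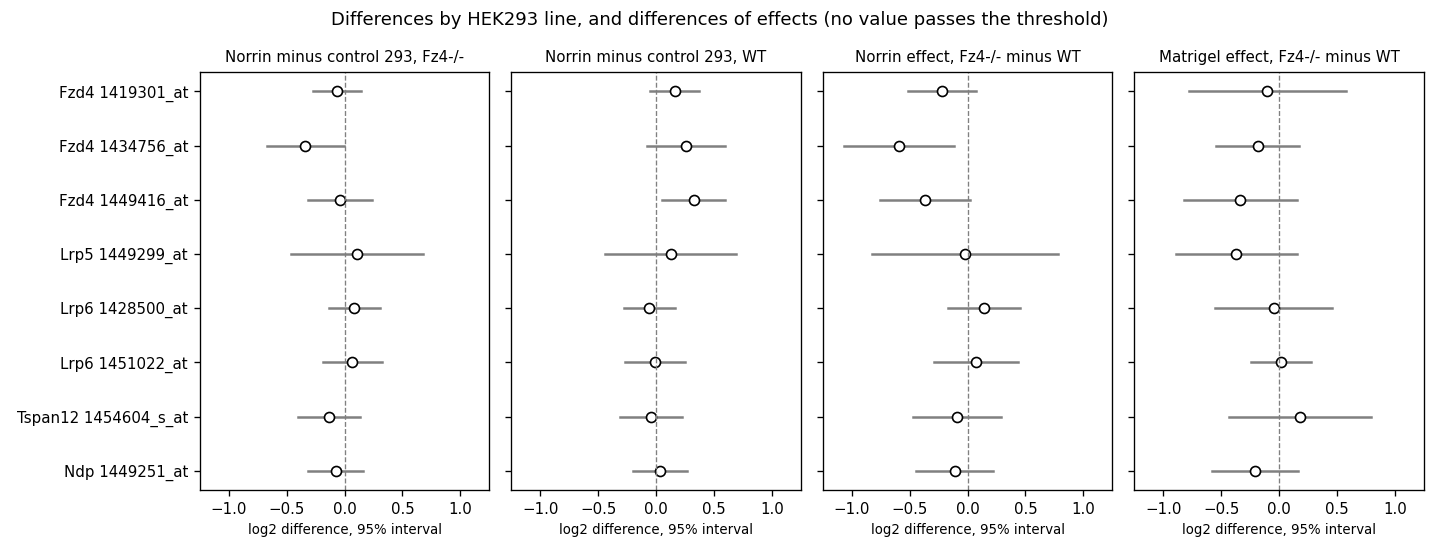
Log2 differences of the 8 member probe sets (open points) with 95% intervals (lines) for Norrin-expressing minus control HEK293 co-culture in each genotype, and for the Norrin-line and Matrigel effects in Fz4-/- minus those in WT. None of these values passed the threshold, and that of Fzd4, the deleted gene, by 1434756_at in the Norrin-line difference is -0.59.

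Of the lists around the complex, 0 genes passed for the HEK293 line in Fz4-/- cells, where 0.154% of named genes were higher and 0.154% lower. In WT co-cultures 4.59% of named genes were higher and 3.31% lower. There 2 of 12 Norrin and frizzled-4 response genes rose, Sox18 by 0.92 ± 0.18 (SE) and Sp5 by 0.80 ± 0.14. Endothelial marker levels were also higher there, as given above, and the list was chosen with earlier results of these data known. Of 26 relay genes 2 rose and 1 fell. Ctnnb1, which encodes beta-catenin, was at 0.48 ± 0.10 and Dvl1, a dishevelled adaptor, at -0.74 ± 0.15. These levels were read in mixed mouse and human RNA. Of 28 other tetraspanins 5 rose, with Tspan14 at 0.83 ± 0.15 and Tspan5 at 0.68 ± 0.13. None of 10 Lrp5 and Lrp6 partners or 11 LDL receptor family genes passed there. Between the genotypes the response differed for Lrp1 alone among these lists, by -0.96 ± 0.19 (SE, adjusted p = 0.0182), where 0.665% of named genes had a higher and 0.951% a lower response in Fz4-/- cells.

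Genotype was last read in co-culture, where it coincides with the array set. The median of all probe sets was shifted by -0.20 with Norrin-expressing and by -0.19 with control cells, and 45.8% and 45.5% of all probe sets passed. With Norrin-expressing cells 0 of 8 members were higher and 4 lower, where 10.2% and 35.6% of all probe sets were. With control cells 0 were higher and 4 lower, where 10.8% and 34.8% were. Fzd4 by 1419301_at was lower in Fz4-/- by -3.64 ± 0.10 (SE) with Norrin-expressing and -3.42 ± 0.10 with control cells, and after centring each array on its median by -3.43 and -3.22. By 1434756_at the centred differences were -2.26 and -1.69. By 1449416_at the difference passed with Norrin-expressing cells (-0.63, adjusted p = 0.00107, and centred -0.42, adjusted p = 0.0292) and not with control cells (-0.26, adjusted p = 0.106, and centred -0.07, adjusted p = 0.736).

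Neither Lrp5 nor Tspan12 passed as higher in Fz4-/- in co-culture. Lrp5 averaged 4.05 in Fz4-/- and 4.20 in WT with Norrin-expressing cells, and 3.95 in Fz4-/- and 4.07 in WT with control cells. Centred differences were 0.07 and 0.07 for Lrp5 and -0.08 and -0.00 for Tspan12, and none passed. Without WT replicate 1 of the Norrin group, uncentred, Lrp5 was at -0.60 (adjusted p = 0.00978) against -0.14 with it, and Tspan12 at -0.38 (adjusted p = 0.0299) against -0.29, and both then passed as lower. Without WT replicate 1 of the control group, Tspan12 passed as lower at -0.32 (adjusted p = 0.0456) against -0.19 with it. Adjusted p over the alternatives was 0.00799 to 0.996 for Lrp5 and 0.0254 to 0.71 for Tspan12 with Norrin-expressing cells, and 0.0346 to 0.999 for Tspan12 with control cells. Lrp6 by 1428500_at passed as lower with control cells at -0.27 ± 0.10 (SE, adjusted p = 0.0451), and at -0.08 (adjusted p = 0.646) once centred. Lrp6 by 1451022_at was higher with Norrin-expressing cells once centred, at 0.34 (adjusted p = 0.0470), against 0.13 (adjusted p = 0.397) before. Ndp passed as lower with both HEK293 lines, and once centred at -0.18 (adjusted p = 0.199) and -0.09 (adjusted p = 0.543) with neither. After centring, 33.5% of all probe sets passed with Norrin-expressing and 34.4% with control cells, and 18.2% and 18.1% were higher.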

How the data were processed

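RMA is the tool that the submitters' processing notes list for the deposited log2 intensities, without a version, and how arrays were grouped for normalization is not given in the sources used here. The single biotin label and 24 arrays are per the labels. Of 45101 probe sets, 64 controls were left out. Of the rest, 34945 had 1 gene symbol in the platform annotation, 932 several and 9160 none. Symbols were updated by gene ID through RefSeq on GRCm38.p6 for 34741, used for names alone.

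Differences were fitted on all 45037 probe sets with limma 3.58.1 in R 4.3.3: a mean per group, the 12 single cultures and 12 co-cultures apart (8 residual degrees of freedom each), empirical Bayes moderation, Benjamini-Hochberg adjustment over all probe sets and a threshold of 0.05. With 3 arrays against 3, the smallest exact permutation p is 0.1, and the number of arrays limits the precision. The fit was tested on simulated data. Figures and promoter searches were made in Python 3.11.15 (matplotlib 3.10.9 for drawing, pandas 2.3.3 and numpy 2.4.6 for the tables).

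Members and gene lists were chosen with earlier results of these data known. All member probe sets were named, and the 3 genes most correlated with each member whose group means ranged over at least 1 log2 unit. Per list and comparison, the naming rule picked up to 4 genes past the threshold by absolute difference. The text names a part of these, and none from the other lists for genotype in co-culture. The marker genes printed were named after their values were seen. Array pairs of equal replicate number had correlated deviations of 0.20 to 0.64 in the single cultures, all above 0.1. An array's best match had its own number in only 2 to 5 of 6 checks per comparison there. The main fit therefore did not pair arrays, and the replicate block was an alternative. In co-culture, all pairs lay above 0.1 only for genotype with Norrin-expressing cells (0.12 to 0.33). Alternatives were quantile normalization, median centring, 1 probe set per gene, bright probe sets alone, a joint fit of 24 arrays, a fit of the compared arrays, robust variance with a trend, the replicate block, and arrays left out or averaged.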

Additional observations from a re-analysis of the deposited data

How the results depend on the processing

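Fzd4 by 1419301_at and 1434756_at kept its direction and its call in all 4 genotype comparisons under every alternative that was run. Apart from single arrays left out, counts of member probe sets past the threshold moved by over 1.5 times in 8 settings. With replicates 2 and 3 averaged they were 3 on gelatin, 3 on Matrigel and 2 for genotype with control HEK293 cells. With the replicate block the count was 2 for Matrigel in Fz4-/- cells, and the block changed no other count by that factor. For genotype with control HEK293 cells it was 2 under quantile normalization and 2 under median centring. For genotype with Norrin-expressing cells it was 2 with 1 probe set per gene, which tests fewer member probe sets, and 2 above the median level, which leaves low ones out. Leaving out each array gave 4 to 6 on gelatin, 4 to 5 on Matrigel, 2 to 3 for genotype with control and 3 to 6 with Norrin-expressing HEK293 cells, and 0 to 2 for Norrin in WT. It gave 0 throughout for Matrigel in either genotype, for Norrin in Fz4-/- and for both differences of effects. Of the values of single probe sets, 51 lost a call, 16 gained one and 0 passed values changed sign, while 77 that did not pass changed sign. Unless named above, the cause was not tested. Levels of Ndp, of Fzd4 by 1449416_at and of Tspan12 in co-culture lie near the lowest values of the arrays, where changes are hard to see.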
